A study of Homo sapiens with 32 samples.

Results

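Long intergenic non-coding RNA genes whose symbol is LINC followed by digits held 3093 of the 338017 m6A peaks in 12 peak lists of chromatin-associated RNA, 0.915% of all. A peak was counted when it overlapped the body of such a gene in the RefSeq table of GRCh38.p14 and no protein-coding gene body, on chromosomes 1 to 22 and X. Of 2300 LINC genes in the table, 324 (14.1%) had at least 1 peak in at least 1 list. Peaks over other long non-coding RNA genes numbered 14605, peaks over protein-coding genes 290879, and peaks outside annotated genes 22060.

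The study set METTL3 knockdown (shMETTL3 in the titles, a short hairpin RNA) against control cells in 4 cell lines from human tumours. The ovarian cancer lines were OVCAR8 and SKOV3, with controls titled shControl. The colon adenocarcinoma lines were LOVO and RKO, with controls titled Control, and every control has the genotype WT. METTL3 is the catalytic subunit of the m6A methyltransferase. MeRIP-seq recovers fragmented RNA with an antibody against N6-methyladenosine, and a peak is a stretch of the genome where recovered reads exceed the input. The ovarian lines had 2 lists per group, 1 for each MeRIP library, and LOVO and RKO had 1 list per group, so that values of LOVO and RKO have no replicate error. No label says that replicates were separate cultures, and p-values then measure only the spread between lists, which may be technical. Peak lists hold no expression values. The knockdown was therefore not checked at METTL3 itself, whose body held between 0 and 3 peaks in each list, 1 in both OVCAR8 knockdown lists and 0 in both SKOV3 knockdown lists.

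LINC symbols are given to RNAs transcribed from genes that lie outside protein-coding genes and code for no known protein. Many such RNAs are made at low levels, in few cell types, and stay in the nucleus on chromatin, where m6A is laid down while the RNA is being transcribed. METTL3 with METTL14 methylates adenosines within a short consensus of which GGAC is the most frequent core, and the nuclear reader YTHDC1 binds the mark on chromatin-bound RNA.

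The ovarian lists went against their labels in LINC genes, and all groups below are as labelled. Of LINC peaks in the libraries labelled OVCAR8 knockdown, 99.3% on average shared a base on the same strand with a peak of SKOV3 control, and 40.2% with a peak of OVCAR8 control. Of LINC peaks in the libraries labelled SKOV3 knockdown, 82.5% did so with OVCAR8 control and 37.5% with SKOV3 control. Replicate lists shared between 84.6% and 92.3% of their LINC peaks. The RKO knockdown list stood apart as well, since 28.6% of its LINC peaks were also in RKO control. LOVO showed no such mismatch, since 79.6% of LINC peaks in its knockdown list were also in its control list. In the other direction, 38.0% of RKO control and 54.7% of LOVO control LINC peaks were matched in the knockdown list of the line. The main results on loss, gain and gene counts in the ovarian lines are also given with the ovarian knockdown lists exchanged.

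Peak numbers in marker genes moved with these mismatches. The colorectal markers were CDX1, CDX2, VIL1, CDH17, LGR5, KRT20, GPA33 and HNF4A. Of these 8, 7 held peaks in LOVO control and 6 in LOVO knockdown, with 23 and 25 summed peaks. CDX2 was the only one of them with peaks in RKO control, where it had 3, none had a peak in RKO knockdown, and none had one in any ovarian list. Of 7 ovarian epithelial markers, 4 held peaks in each OVCAR8 control list and in each list labelled SKOV3 knockdown, with 20 to 30 summed peaks, against 1 marker and 4 to 7 summed peaks in the lists labelled OVCAR8 knockdown. SKOV3 control had 2 such markers, with 9 and 7 summed peaks. The colorectal lines also had peaks in ovarian markers, 15 and 8 in LOVO control and knockdown and 16 and 1 in RKO, of which MECOM gave 14 and 8, and 11 and 1. MUC16, the gene of the CA125 antigen, had 5 peaks in each OVCAR8 control list, 5 and 6 in the lists labelled SKOV3 knockdown, and 0 in the SKOV3 control and OVCAR8 knockdown lists. WT1, EMX2 and SOX17 had none in any list. Fibroblast markers held at most 1 gene with peaks in a list, COL1A1. The part of cell identity in the results below was not tested.

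Windows around the starts of LINC genes show where on the sequence some of these peaks lay. The promoter table of RefSeq (GRCh38.p14) gave windows of 250 bases before to 50 after the start for 215 of the 324 genes with peaks. A same-strand peak reached into such a window in 36 LINC genes. The 6 genes whose windows held one in most lists, from 12 lists down to 7, are printed 5′ to 3′ on the gene's strand. Capitals mark bases covered by same-strand peaks in the majority of the lists with a peak there. The windows are chr1:112849607-112849906 on the plus strand for LINC01357, chr6:71420696-71420995 on the minus strand for LINC00472, chr19:782546-782845 (plus) for LINC01836, chr18:5237850-5238149 (plus) for LINC00667, chr11:33075900-33076199 (plus) for LINC00294 and chr7:30390635-30390934 (plus) for LINC01176.
LINC01357: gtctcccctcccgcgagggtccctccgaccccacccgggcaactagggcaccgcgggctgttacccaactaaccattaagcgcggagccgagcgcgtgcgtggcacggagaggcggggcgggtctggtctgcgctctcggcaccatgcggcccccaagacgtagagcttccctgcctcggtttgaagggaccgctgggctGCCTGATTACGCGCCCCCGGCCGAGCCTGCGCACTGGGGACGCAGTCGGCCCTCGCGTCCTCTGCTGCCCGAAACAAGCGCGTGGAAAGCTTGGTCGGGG
LINC00472: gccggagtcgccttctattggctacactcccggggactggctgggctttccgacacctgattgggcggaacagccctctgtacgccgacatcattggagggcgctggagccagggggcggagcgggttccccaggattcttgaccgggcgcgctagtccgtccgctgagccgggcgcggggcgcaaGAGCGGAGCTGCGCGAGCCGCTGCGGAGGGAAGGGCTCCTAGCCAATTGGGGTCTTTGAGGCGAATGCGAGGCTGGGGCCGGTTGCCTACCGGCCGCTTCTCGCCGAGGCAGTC
LINC01836: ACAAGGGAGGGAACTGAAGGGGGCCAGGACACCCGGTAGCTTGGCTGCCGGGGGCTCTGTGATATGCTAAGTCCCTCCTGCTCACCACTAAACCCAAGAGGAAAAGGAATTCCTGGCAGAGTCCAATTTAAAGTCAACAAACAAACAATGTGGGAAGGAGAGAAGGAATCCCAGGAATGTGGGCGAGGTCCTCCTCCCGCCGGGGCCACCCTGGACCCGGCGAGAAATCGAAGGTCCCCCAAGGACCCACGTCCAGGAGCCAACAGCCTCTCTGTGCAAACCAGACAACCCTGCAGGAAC
LINC00667: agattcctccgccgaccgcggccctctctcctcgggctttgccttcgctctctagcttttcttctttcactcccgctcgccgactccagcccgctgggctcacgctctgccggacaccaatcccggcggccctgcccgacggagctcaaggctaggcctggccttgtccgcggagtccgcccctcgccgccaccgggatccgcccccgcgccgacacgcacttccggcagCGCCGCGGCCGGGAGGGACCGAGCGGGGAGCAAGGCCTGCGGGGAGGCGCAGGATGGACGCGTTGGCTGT
LINC00294: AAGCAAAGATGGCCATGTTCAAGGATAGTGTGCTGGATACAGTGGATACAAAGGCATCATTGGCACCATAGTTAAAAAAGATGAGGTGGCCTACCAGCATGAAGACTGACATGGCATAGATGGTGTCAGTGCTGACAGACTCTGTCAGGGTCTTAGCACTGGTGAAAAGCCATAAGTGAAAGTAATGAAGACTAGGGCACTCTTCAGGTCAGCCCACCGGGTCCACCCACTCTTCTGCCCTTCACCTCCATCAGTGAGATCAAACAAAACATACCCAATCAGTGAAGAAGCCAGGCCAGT
LINC01176: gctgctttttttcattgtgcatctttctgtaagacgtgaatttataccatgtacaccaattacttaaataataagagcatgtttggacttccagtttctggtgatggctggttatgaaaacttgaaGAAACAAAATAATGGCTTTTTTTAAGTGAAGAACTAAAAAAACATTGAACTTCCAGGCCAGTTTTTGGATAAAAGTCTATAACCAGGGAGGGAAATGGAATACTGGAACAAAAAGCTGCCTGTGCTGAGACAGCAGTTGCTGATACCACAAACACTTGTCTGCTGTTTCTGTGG

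The LINC01357 window held a same-strand peak in all 12 lists, and its capitals span the 50 bases before the start and the 50 after it. The body of the minus-strand gene LINC01356 overlaps this start, and these peaks count in both genes. LINC00472 had a peak in its window in 9 lists, the 8 ovarian lists and RKO knockdown, and LINC01836 in the 8 ovarian lists alone. LINC00667 had one in 8 lists. LINC00294 and LINC01176 had one in 7 lists each, which included both OVCAR8 control lists and both lists labelled SKOV3 knockdown and none of the other ovarian lists. In LINC01836 and LINC00294 all 300 bases are in capitals, so the peaks also covered sequence before the annotated start.

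The motif GGAC, searched on the gene's strand with no other motif counted, occurred 2 times in the LINC01357 window, 3 times each in those of LINC01836 and LINC00667, 1 time each in those of LINC00472 and LINC01176, and not in that of LINC00294. Within the capitals of the printed windows it occurred 3 times in LINC01836, 2 times in LINC00667 and 1 time in LINC01357. The capitals of LINC00472, LINC00294 and LINC01176 held none. Of 37 LINC windows with a same-strand peak, 29 (78.4%) held GGAC, counted over the whole window and not only under the peak. The motif was in 66.4% of the 34961 windows of all genes and 57.6% of the 1729 LINC windows. On either strand, as GGAC or GTCC, 87.4% of all windows held it. The number of LINC genes with a same-strand peak in the window ranged from 5 in RKO control to 17 in RKO knockdown, and was 10 and 11 for OVCAR8 control, 8 and 7 for OVCAR8 knockdown, 12 in both SKOV3 control lists, 13 and 12 in SKOV3 knockdown, and 6 and 12 in LOVO control and knockdown.

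LINC peaks per list ranged from 135 to 371. OVCAR8 control lists held 254 and 263 LINC peaks, and the lists labelled OVCAR8 knockdown 135 and 143. SKOV3 control lists held 297 and 305, and the lists labelled SKOV3 knockdown 261 and 257. In LOVO there were 316 in control and 225 in knockdown, and in RKO 266 and 371. RKO knockdown was the highest of the 12 lists, while OVCAR8 knockdown lists were the lowest pair.

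In OVCAR8 the number of LINC peaks followed the size of the lists, and in RKO it did not. The mean change from control to knockdown was -46.2% for LINC peaks and -45.2% for all peaks in OVCAR8, and -14.0% and -8.58% in SKOV3. It was -28.8% and -14.3% in LOVO. In RKO, LINC peaks were 39.5% more numerous in knockdown, while all peaks changed by -9.05%. The ovarian changes are for the lists as labelled. With the ovarian knockdown lists exchanged, mean LINC peaks in control and knockdown were 258.5 and 259 in OVCAR8, and 301 and 139 in SKOV3. Mean numbers of all peaks were then 28505.5 and 26521.5 in OVCAR8, and 29010 and 15614 in SKOV3.

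As a share of all peaks, LINC peaks made up 0.907% ± 0.010 (SD, n = 2) in OVCAR8 control and 0.890% ± 0.026 (SD, n = 2) in OVCAR8 knockdown. The share was 1.04% ± 0.015 (SD, n = 2) in SKOV3 control and 0.977% ± 0.029 (SD, n = 2) in SKOV3 knockdown. It was 0.872% in LOVO control and 0.724% in LOVO knockdown, and 0.711% and 1.09% in RKO. The 2 OVCAR8 groups overlapped and the SKOV3 groups did not.

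**Figure D1:**
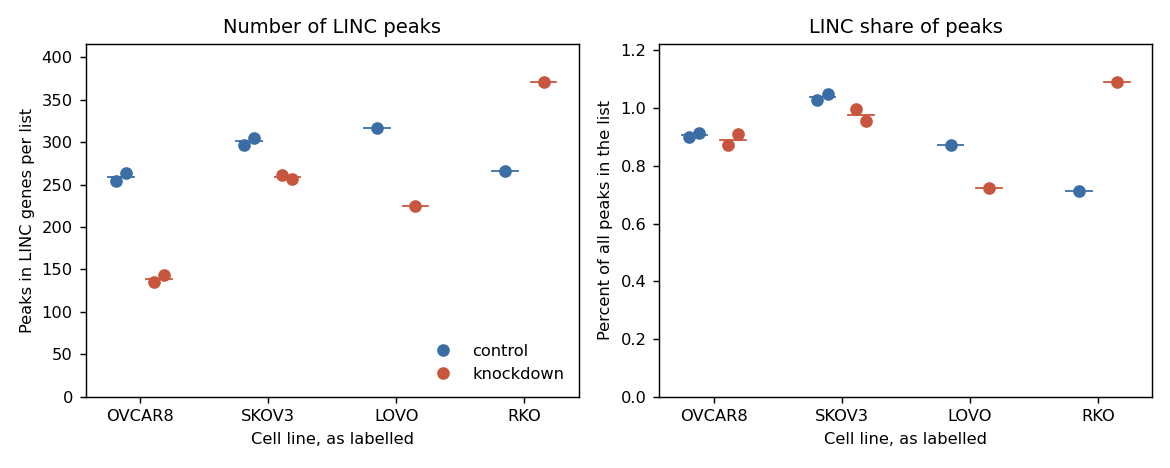
Number of peaks in LINC genes (left) and their percent of all peaks of the list (right) by cell line as labelled. Each point is 1 peak list and each line the mean of the group; RKO knockdown held 371 LINC peaks against 266 in control, while the other lines held fewer in knockdown.

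No shift of the LINC share was found over the 4 lines. The knockdown minus control difference of log2 share, with a pseudocount of 1, averaged 0.06 (two-sided exact permutation test within lines, p = 0.986, Benjamini-Hochberg adjusted over 3 ratios 0.986), with 3 lines lower and 1 higher. Set against protein-coding peaks the mean was 0.07 (exact p = 0.986, adjusted 0.986). Set against peaks of other long non-coding RNA genes it was 0.06 (exact p = 0.222, adjusted 0.667), higher in 3 lines and lower in RKO. The smallest p that the 144 arrangements can give is 0.0139. Without the RKO lists the mean log2 share difference was -0.12 (exact p = 0.0556), and no adjusted p passed 0.05. As labelled, the LINC share was lower in the 3 other lines, a direction that depends on the ovarian labels. With the ovarian knockdown lists exchanged, the mean share in control and knockdown was 0.907% and 0.977% in OVCAR8, and 1.04% and 0.890% in SKOV3.

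LINC peaks resembled other peaks in height and width. The median strength rank of LINC peaks within a list, where 100% is the strongest peak, lay between 45.6% and 53.0% over the 12 lists, against 50.1% to 52.0% for protein-coding peaks. The strongest 10% of a list held between 5.12% and 11.1% of its LINC peaks. The median width of LINC peaks was 273 to 354 bases, and that of other peaks 288 to 323 bases. The highest fold of a LINC peak, as the authors deposited it, was 38.8 and 36.7 in the OVCAR8 control lists, in both cases in LINC00958. In SKOV3 control it was 38.0 and 35.3, in both cases in LINC02582. In the 4 ovarian knockdown lists it was between 16.2 and 18.3.

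The deposited score of RKO knockdown peaks was higher than in the other lists of its kind. The median LINC score was 7.96 there, against 5.19 in RKO control, 5.94 in LOVO control and 5.73 in LOVO knockdown. The same held for all peaks, with medians of 8.41, 5.19, 5.78 and 5.52. The part of this scale difference in the RKO results was not tested.

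Most LINC peaks lay on the strand of the gene where its strand was known. Between 74.6% and 92.8% of such LINC peaks were sense, against 85.9% to 94.1% in protein-coding genes and 78.0% to 87.0% in other long non-coding RNA genes. Of 158 LINC genes with 5 or more peaks over all lists, 129 had every peak on 1 strand. LINC00609, annotated on the plus strand, was an exception in direction, since all of its 32 peaks were on the minus strand. All 8 peaks of LINC03041, annotated on the minus strand, were on the plus strand. The lowest sense share was that of RKO knockdown, with 200 sense and 68 antisense peaks, against 152 and 33 in RKO control. A peak on the opposite strand overlapped between 0% and 4.04% of LINC peaks, again with the most in RKO knockdown.

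Sense peaks were denser near the start of LINC genes. With the gene body cut into 5 equal parts, the first part held a median of 33.6% of sense LINC peaks over the 12 lists (range 27.5% to 50.9%), and the last a median of 22.1%. The middle part held a median of 15.1%. Between 5.57% and 13.2% of LINC peaks lay within 5 kb of a protein-coding gene body, with the highest share in RKO knockdown against 9.40% in RKO control.

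The peaks were spread unevenly over genes. The median LINC gene with a peak had 4 peaks summed over the 12 lists. Of the 324, 75 had 1 peak, 91 had 2 to 4, and 45 had 20 or more, and 710 of the 3093 peaks (22.96%) lay in the 10 genes with most. In at least 1 list, 66 genes reached 5 peaks and 21 reached 10. Genes with a peak were longer (median 21.97 kb) than LINC genes without one (12.7 kb). Across the 324 genes Spearman's rho between length and number of peaks was 0.27, a description over genes that share the same libraries. Per length, LINC00205 had 3.67, LINC01000 3.25 and LINC00342 3.01 peaks per 10 kb of gene body in the mean list, while LINC02899 had 0.33 and LINC00922 0.05. Some short genes were denser, such as LINC03061 with 9.99 and LINC00938 with 6.06, both chosen after their values were seen.

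By chromosome, LINC peaks were most numerous on chromosome 1, with 357 (11.5%) in 38 genes, and chromosome 7, with 309 (9.99%) in 15 genes. The X chromosome held 204 (6.60%) in 13 of its 42 LINC genes.

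Peaks in most LINC genes were seen in few lines. Of 238 LINC genes with a peak in every control list of a line, 138 (58.0%) had it in 1 line, 50 in 2, 18 in 3 and 32 (13.4%) in all 4. Every control list means 2 lists in each ovarian line and 1 in LOVO and in RKO. A peak in only 1 of the 2 ovarian lists did not count. Of protein-coding genes with a control peak, 20.7% had it in 1 line and 40.8% in all 4. Other long non-coding RNA genes were close to the LINC genes, with 54.4% and 12.7%. Protein-coding genes had more peaks, so the same was read among genes with 3 to 5 control peaks in their highest line. There 12 of 38 LINC genes (31.6%) and 10.1% of protein-coding genes were limited to 1 line, and 9 LINC genes (23.7%) and 48.3% of protein-coding genes had peaks in all 4. These shares were not tested, and in chromatin-associated RNA a missing peak and a missing transcript cannot be told apart.

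**Figure D2:**
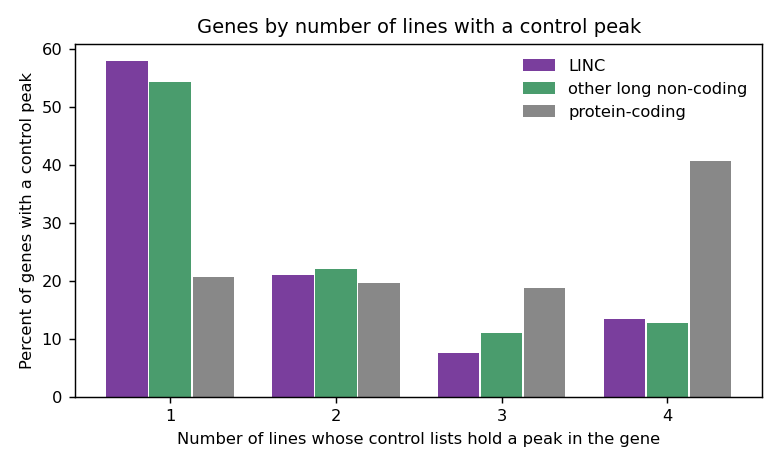
Percent of genes with a control peak (vertical axis) by the number of lines that hold one in every control list (horizontal axis), for LINC, other long non-coding and protein-coding genes. The ovarian lines have 2 control lists each, and LOVO and RKO 1 each. The bars for 1 line are 58.0% for LINC and 20.7% for protein-coding genes, and those for 4 lines 13.4% and 40.8%.

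By the same rule, LOVO was the only line with control peaks in 51 LINC genes, SKOV3 in 33, and OVCAR8 and RKO in 27 each. A gene counted for LOVO alone could still have a peak in 1 of 2 ovarian control lists, as LINC01619 did in OVCAR8. Over all 12 lists, 111 LINC genes had peaks in a single list, and 60 of these were in RKO knockdown. RKO control had 19 such genes, LOVO control 17 and LOVO knockdown 9. Each ovarian list had at most 4. An ovarian group has 2 lists that share most of their LINC peaks, while LOVO and RKO have 1 list per group. The single-list numbers are therefore not comparable between ovarian and colorectal lists, and the same count over all genes is not given.

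At the other end, 17 LINC genes had a peak in every list: LINC01128, LINC01772, LINC01356, LINC01357, LINC00938, LINC00921, LINC01572, LINC00674, LINC00667, LINC00342, LINC00205, LINC02614, LINC03009, LINC01000, LINC00963, LINC01278 and LINC00630. LINC01356 and LINC00921 had exactly 1 peak in each of the 12 lists. LINC00205, at chr21:45288052-45297354 on the plus strand and 0.156 kb from the nearest protein-coding gene, had 3 peaks in 7 of the 8 ovarian lists and 2 in the other, 4 in both LOVO lists and 5 in both RKO lists. LINC00674 had 2 peaks in every ovarian list, 5 and 2 in LOVO control and knockdown, and 4 in both RKO lists, and 28 of its 31 peaks also overlap a pseudogene. LINC00667, whose window is printed above, had between 1 and 3 peaks in each list.

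OVCAR8 control was led by LINC02899, a gene of 226.9 kb at chr5:23951348-24178265. LINC02899 had 24 and 19 peaks in the OVCAR8 control lists, with 0 in both lists labelled OVCAR8 knockdown. It had 1 in both SKOV3 control lists and 21 in both lists labelled SKOV3 knockdown, 1 in each LOVO list and 0 in RKO. Its high lists were OVCAR8 control and the lists labelled SKOV3 knockdown, and they overlapped with no other list. Of its 89 peaks, 85 were on the plus strand.

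LINC02476, 287.9 kb long at chr7:119619430-119907375, followed the same lists. Its OVCAR8 control lists held 11 and 12 peaks, with 11 and 15 in the lists labelled SKOV3 knockdown, and 0 in the other 8 lists, all of them on the minus strand. LINC03077, on the X chromosome at chrX:98573873-98867764, showed 7 and 8 peaks for OVCAR8 control, 7 in each list labelled SKOV3 knockdown and 0 elsewhere. It lies 724.5 kb from the nearest protein-coding gene.

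LINC00842, LINC01278 and LINC01000 were high in the same lists and lower, not empty, in the others. For LINC00842 the OVCAR8 control lists gave 11 and 12 peaks, those labelled OVCAR8 knockdown 4 and 3, with 5 in both SKOV3 control lists, 13 in both SKOV3 knockdown lists and 0 in the colorectal lists. LINC01278, at chrX:63426558-63561095 on the minus strand, had 10 in both OVCAR8 control lists, 1 and 3 in OVCAR8 knockdown, 4 in both SKOV3 control lists and 10 in both SKOV3 knockdown lists. In LOVO it had 6 in control and 4 in knockdown, and in RKO 9 in both. LINC01000 had 9 in both OVCAR8 control lists, 3 in both OVCAR8 knockdown lists, 5 in both SKOV3 control lists and 8 in both SKOV3 knockdown lists, then 6 and 8 in LOVO and 5 and 8 in RKO. Of the 77 LINC01000 peaks, 30 also overlap the pseudogene CICP14.

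SKOV3 control was led by LINC01776, LINC02582, LINC02438, LINC00534 and LINC01592. LINC01776, at chr1:98210711-98272658, had 13 peaks in both SKOV3 control lists, 1 and 2 in SKOV3 knockdown, 0 in OVCAR8 control and 4 in both lists labelled OVCAR8 knockdown. It also had 5 in RKO knockdown. All 42 of its peaks also overlap another annotated non-coding gene, so none of its 10 lost SKOV3 regions is left when peaks in any other gene are set aside. LINC02582 had 12 and 11 in SKOV3 control and 0 in SKOV3 knockdown, with 0 for OVCAR8 control, 2 and 3 in the lists labelled OVCAR8 knockdown, and 2 and 1 for LOVO. LINC02438, 794.9 kb from the nearest protein-coding gene, had 11 in both SKOV3 control lists, 3 in both OVCAR8 knockdown lists and 0 in all others. In each of the 3, the lists labelled OVCAR8 knockdown had peaks where OVCAR8 control had none, at a lower number than SKOV3 control. With lists of equal size and with stronger peaks, lost SKOV3 regions went from 11 to 3 and 4 in LINC02438. They went from 11 to 10 and 10 in LINC02582 and from 10 to 6 and 6 in LINC01776.

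LINC01592, at chr8:68911803-69104190, had 10 peaks in both SKOV3 control lists and 11 and 9 in the lists labelled OVCAR8 knockdown. It had 15 in RKO control and 0 in RKO knockdown, in SKOV3 knockdown, in OVCAR8 control and in LOVO. Its highest deposited fold was 35.3 and 34.1 in SKOV3 control and 6.13 and 6.71 in the lists labelled OVCAR8 knockdown. LINC00534 had 9 and 12 peaks in SKOV3 control, 7 in both OVCAR8 knockdown lists, 0 in OVCAR8 control and SKOV3 knockdown, and 3 and 1 in LOVO. Its 7 gained OVCAR8 regions were 6 with lists of equal size and 0 with stronger peaks, and the 9 of LINC01592 were 9 and 3. LINC00609 had 8 and 7 for SKOV3 control, 8 and 9 for OVCAR8 knockdown and 0 in the other 8 lists. All 32 LINC00609 peaks, the antisense peaks given above, also overlap the non-coding gene PTCSC3, and its 6 gained OVCAR8 regions become 0 without peaks in another gene.

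LOVO control was led by LINC02405, LINC01128, LINC00342, LINC00922 and LINC00630. LINC02405, at chr12:126915227-127060397, had 12 peaks in LOVO control, 5 in LOVO knockdown and 0 in every other list, with 7 of 12 control regions lost. That loss was 3 regions with lists of equal size, with stronger peaks, and without peaks in another gene. LINC00922, 291.8 kb long on chromosome 16, had 9 and 8 in LOVO and 0 elsewhere, and 15 of these 17 peaks also overlap another annotated gene. LINC00598 had 7 in LOVO control and 2 in LOVO knockdown, and LINC01619 6 and 1, though LINC01619 had 7 in RKO knockdown and 0 in RKO control. LINC00673, which has been studied as a cancer-linked RNA, had 5 in LOVO control and 10 in LOVO knockdown. Its 5 gained LOVO regions were 0 with lists of equal size and 0 with stronger peaks. Among genes with more peaks in LOVO knockdown than in control, the next by regions gained were LINC01276, LINC01814 and LINC02930, with 2 each. LINC01276 and LINC02930 kept 1 each with equal lists, and LINC02930 none without peaks in another gene.

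RKO control was led by LINC01592, LINC01572, LINC01278, LINC01128 and LINC01515. LINC01572, at chr16:72280902-72664970 on the minus strand, had 11 peaks in RKO control and 8 in RKO knockdown, with 9 of 11 control regions lost and 5 of 8 knockdown regions gained. The 9 lost regions were 1 with lists of equal size, 2 with stronger peaks and 4 without peaks in another gene. LINC01515 had 8 and 0 in RKO, 8 and 7 in SKOV3 control, 1 in both OVCAR8 knockdown lists and 0 in the rest. LINC03041 had 8 in RKO control and 0 in the other 11 lists. In RKO knockdown, LINC03082, at chr13:109983376-110129136, had 16 peaks and none in any other list. LINC03021 had 11 there and none elsewhere, LINC02987 13 against 2 in RKO control, and LINC01237 13 against 5. With lists of equal size and with stronger peaks, gained regions went from 16 to 7 and 8 in LINC03082 and from 11 to 7 and 7 in LINC03021. They went from 12 to 6 and 6 in LINC02987 and from 10 to 8 and 9 in LINC01237. Lost RKO regions went from 15 to 5 and 7 in LINC01592, from 8 to 2 and 2 in LINC01515, and from 8 to 4 and 6 in LINC03041.

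**Figure D3:**
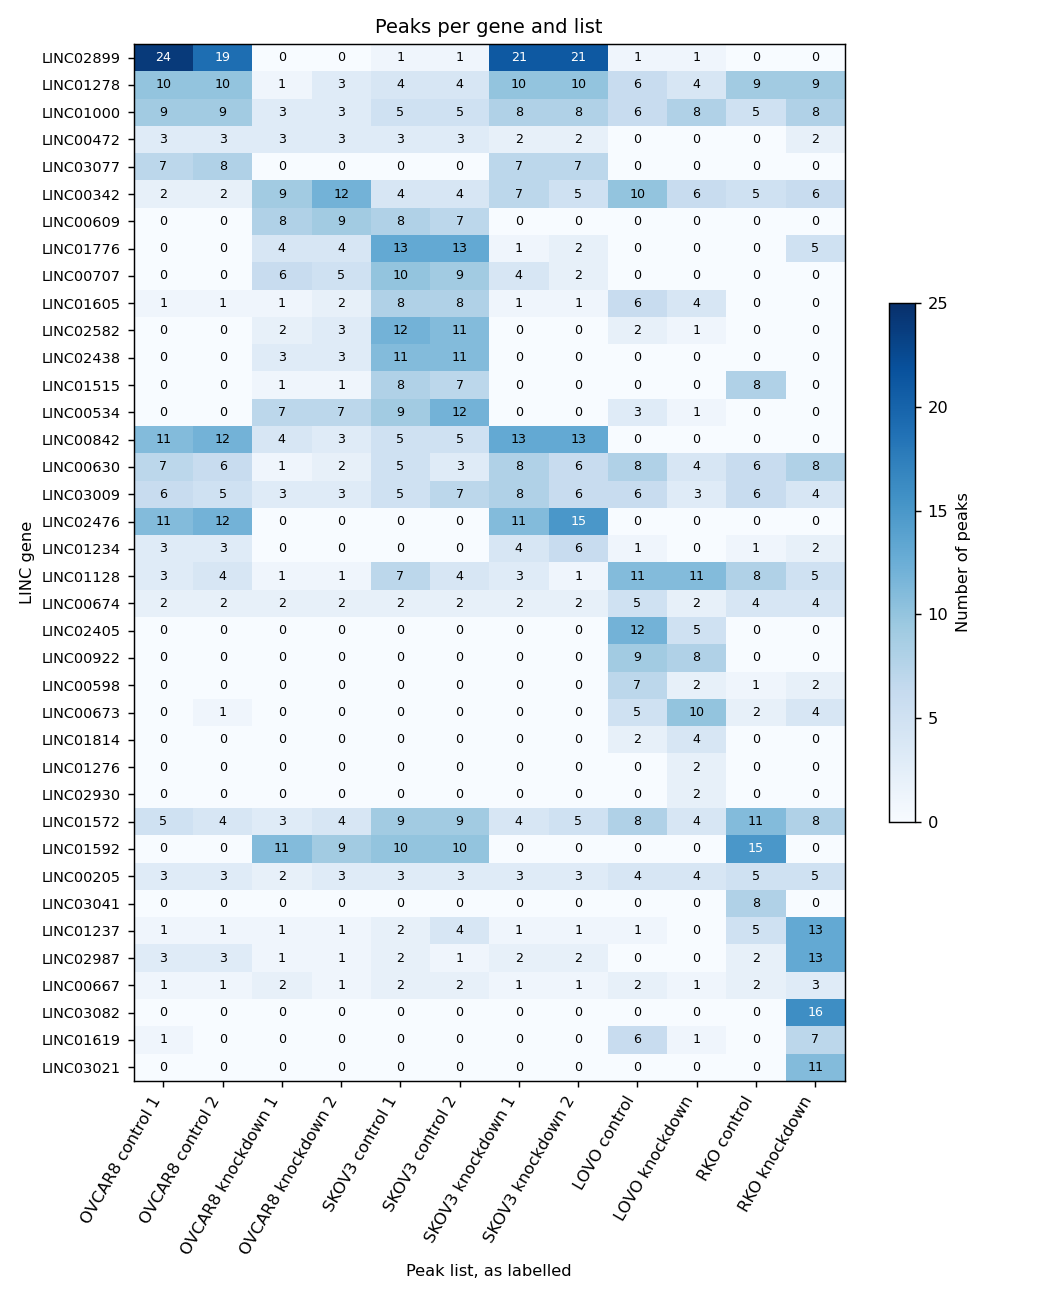
Number of peaks (colour and printed value) of 38 LINC genes (rows) in each of the 12 peak lists as labelled (columns), with genes ordered by the list in which they have most. LINC02899 has 24 and 19 peaks under OVCAR8 control and 21 in both lists labelled SKOV3 knockdown, while LINC03082 has 16 in RKO knockdown alone.

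Region loss was read from merged control peaks. A control region is same-strand peaks merged and present in every control list of a line, and it is lost if no knockdown list has a same-strand peak sharing 1 base with it. In OVCAR8, 173 of 230 LINC regions were lost (75.2%, 95% Wilson interval 69.3% to 80.4%, for counting error only), against 57.8% of all regions. In SKOV3, 166 of 266 were lost (62.4%, 56.4% to 68.0%), against 44.4% of all. In LOVO, 143 of 316 were lost (45.3%, 39.9% to 50.8%), against 37.8% of all, and in RKO 165 of 266 (62.0%, 56.1% to 67.7%), against 60.1% of all. Set against each knockdown list alone, LINC loss was 79.6% and 76.5% in OVCAR8, where all regions gave 61.1% and 60.3%. In SKOV3 it was 64.3% and 65.8%, where all regions gave 48.0% and 46.8%.

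With the ovarian knockdown lists exchanged, LINC loss was 10% for OVCAR8 control regions, where all regions gave 14.6%. For SKOV3 control regions it was 52.3%, where all regions gave 44.3%. In OVCAR8, LINC loss was thus above that of all regions with the lists as labelled and below it with them exchanged.

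As labelled, other long non-coding RNA genes were the only other class with loss close to that of LINC genes in every line. These genes lost 72.3% of their OVCAR8 regions, 63.3% for SKOV3, 47.3% for LOVO and 63.9% for RKO. Each value lay within the Wilson interval of the LINC value, which covers counting error only and tests no difference. Protein-coding regions were lost at 56.0%, 40.4%, 36.3% and 59.3%, the RKO value also within the LINC interval. Regions outside genes were lost at 74.1%, 70.9%, 50.4% and 68.6%, above the LINC interval for SKOV3 and RKO. With the ovarian knockdown lists exchanged, loss in other long non-coding genes was 20.8% for OVCAR8 and 56.4% for SKOV3, against 10% and 52.3% in LINC genes. Protein-coding genes then gave 13.8% and 42.3%, and regions outside genes 22.9% and 57.96%.

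Gain mirrors loss, as knockdown regions with no control peak. In OVCAR8, 68 of 116 LINC regions were gained (58.6%, 49.5% to 67.2%), against 25.9% of all knockdown regions. In SKOV3, 132 of 223 were gained (59.2%, 52.6% to 65.4%), against 36.5% of all. LOVO gained 46 of 225 (20.4%, 15.7% to 26.2%), against 26.9%, and RKO 265 of 371 (71.4%, 66.6% to 75.8%), against 54.9%. As labelled and with the full lists, LOVO was thus the only line with LINC gain below that of all regions. With lists of equal size LOVO LINC gain was 36.1%, and no value of all regions is given for that setting. With the ovarian knockdown lists exchanged, LINC gain was 8.52% in OVCAR8, against 8.81% of all regions, and 0 of 116 in SKOV3, against 1.94% of all.

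**Figure D4:**
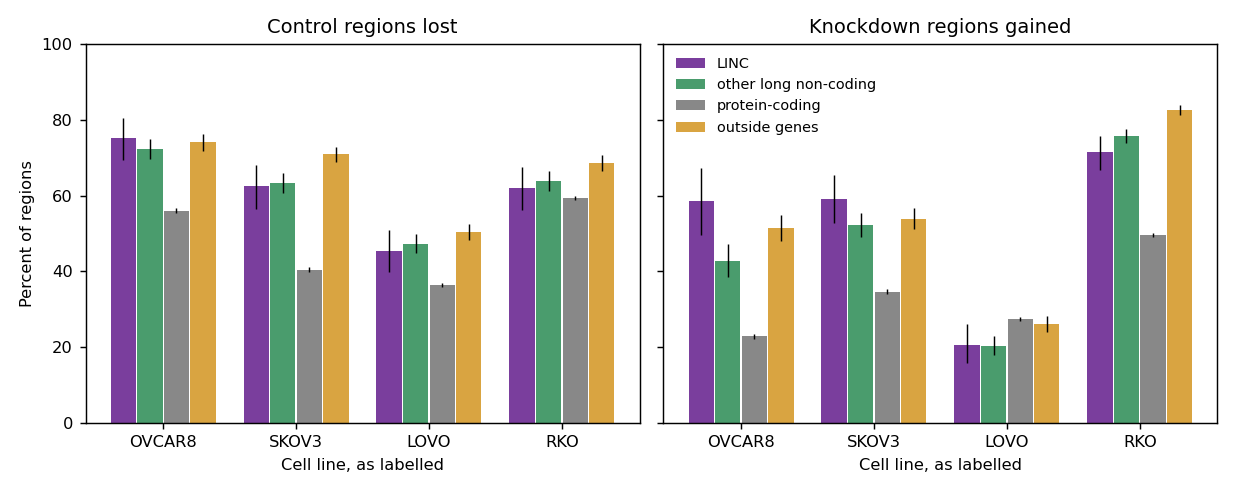
Percent of control regions lost (left) and of knockdown regions gained (right) by cell line as labelled, for 4 classes of region, with 95% Wilson intervals for counting error. LINC loss is 75.2%, 62.4%, 45.3% and 62.0% from left to right, beside 56.0%, 40.4%, 36.3% and 59.3% in protein-coding genes.

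Control regions of 1 line set against every other group put the loss on a scale. Of OVCAR8 LINC control regions, 10% lacked a peak in the lists labelled SKOV3 knockdown, and between 62.6% and 75.2% lacked one in each of the 6 other groups, the highest being OVCAR8 knockdown. Of all OVCAR8 control regions, 14.6% lacked one in the lists labelled SKOV3 knockdown, and 44.6% to 57.8% in the other groups. Of SKOV3 LINC control regions, 52.3% lacked a peak in the lists labelled OVCAR8 knockdown and 62.4% in those labelled SKOV3 knockdown, against 44.3% and 44.4% of all regions. LOVO LINC control regions were matched best in LOVO knockdown, with 45.3% lacking a peak, and lacked one at 58.9% in RKO control and at 67.7% to 81.0% in the rest. Of all LOVO control regions, 37.8% lacked one in LOVO knockdown and 35.9% in RKO control. RKO LINC control regions were matched best in LOVO control (54.5% lacking) and SKOV3 control (58.3%), before RKO knockdown (62.0%). Of all RKO control regions, 40.3% lacked a peak in LOVO control, 50.4% in LOVO knockdown, 56.8% in SKOV3 control and 60.1% in RKO knockdown.

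**Figure D5:**
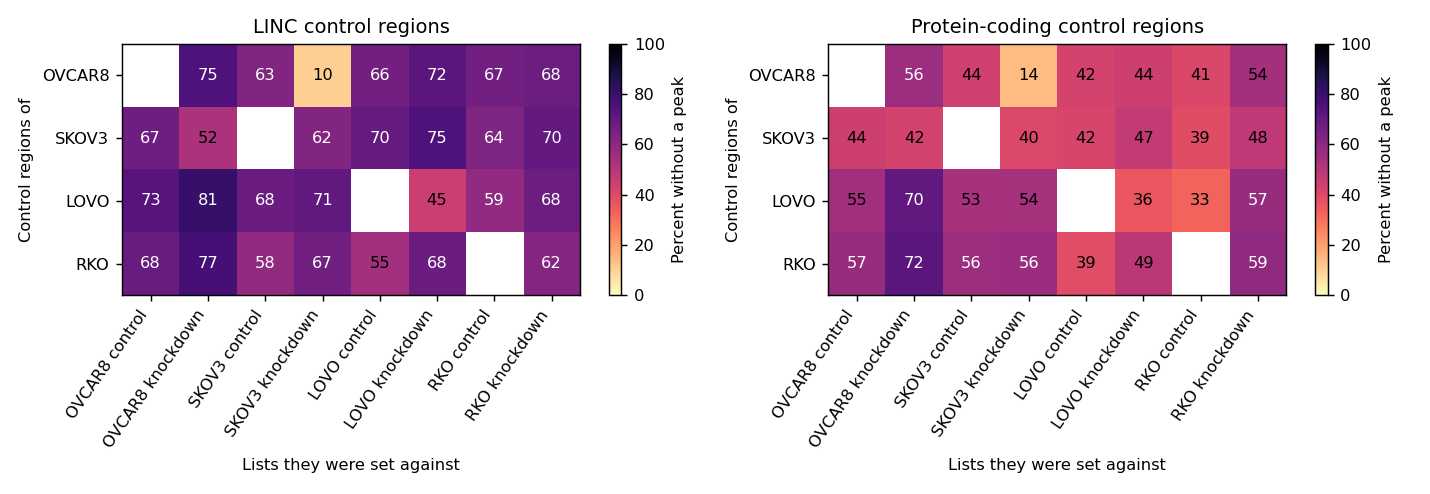
Percent of control regions without a same-strand peak (colour and printed value, rounded) for LINC (left) and protein-coding (right) regions of each line (rows), set against each group of lists (columns); a line's own control is blank. OVCAR8 LINC regions are nearly all matched in the lists labelled SKOV3 knockdown, where 10% lack a peak.

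Weak regions were lost more often than strong ones. Among LINC control regions below the median strength of all regions of the line, loss was 86.8% for OVCAR8, 69.8% for SKOV3, 67.1% for LOVO and 72.9% for RKO. Above it, loss was 63.8%, 54.3%, 25% and 51.1%. With the ovarian knockdown lists exchanged, the weaker and stronger LINC regions were lost at 15.8% and 4.31% for OVCAR8, and at 74.1% and 28.3% for SKOV3. If each LINC region had been lost at the rate of all regions in its 10% of strength, loss would be 58.1% for OVCAR8, 44.9% for SKOV3, 37.3% for LOVO and 60.3% for RKO. The observed LINC loss was above that by 17.2, 17.5, 7.95 and 1.76 percentage points, with the lists as labelled. With the ovarian knockdown lists exchanged and no matching by strength, LINC loss was 10% in OVCAR8, against 14.6% of all regions. In SKOV3 it was then 52.3%, against 44.3%. Among LINC regions in the strongest 10% of all regions, 3 of 35 were lost in LOVO, 14 of 29 in RKO, 7 of 17 in OVCAR8 and 14 of 32 in SKOV3.

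Loss was also read by strand. On the strand of the LINC gene, 67.2% of OVCAR8 and 46.4% of SKOV3 control regions were lost, and on the other strand 9 of 10 and 18 of 20. In LOVO the values were 45.6% and 4 of 15, and in RKO 59.2% and 25 of 33. Over 5 kb from protein-coding genes, 76.4%, 64.8%, 46.4% and 65.1% of LINC regions were lost in OVCAR8, SKOV3, LOVO and RKO. Within 5 kb, 8 of 14, 4 of 16, 9 of 27 and 8 of 25 were lost. With the lists exchanged, sense loss was 6.90% for OVCAR8 and 46.4% for SKOV3. Loss over 5 kb away was then 10.2% and 53.2%, and within 5 kb 1 of 14 and 6 of 16.

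As labelled, a larger share of LINC genes than of protein-coding genes lost every peak, a difference that was not tested. Of LINC genes with a peak in every control list, 54 of 92 (58.7%) had none in any OVCAR8 knockdown list, as did 43 of 100 for SKOV3, 33 of 128 (25.8%) for LOVO and 42 of 100 for RKO. For protein-coding genes the percentages were 29.5, 20.7, 12.7 and 21.98, and for other long non-coding RNA genes 54.7, 51.8, 30.4 and 44.0, above the LINC values in SKOV3, LOVO and RKO. The lost LINC regions were in emptied genes for 71.7% of them in OVCAR8, for 72.9% in SKOV3, for 31.5% in LOVO and for 63.0% in RKO. These shares were 72.0%, 71.4%, 31.6% and 56.1% in other long non-coding RNA genes, and 39.8%, 43.8%, 13.1% and 25.4% in protein-coding genes. With the ovarian knockdown lists exchanged, 4 of 92 LINC genes (4.35%) were emptied in OVCAR8 and 28 of 100 in SKOV3, against 3.35% and 20.8% of protein-coding and 7.85% and 37.9% of other long non-coding genes. In LOVO, 40 LINC genes lost some but not all control regions, 35 lost all and 53 lost none.

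Counted by gene, 66 of 137 LINC genes with a peak had fewer peaks in every OVCAR8 knockdown list than in every control list (48.2%, against 46.7% of all genes), and 26 had more (18.98%, against 15.1%). In SKOV3, 59 of 159 had fewer (37.1%, against 31.8%) and 51 more (32.1%, against 26.8%). In LOVO, 54 of 143 had fewer by 2-fold or more (37.8%, against 28.4%) and 19 more (13.3%, against 15.6%). In RKO, 51 of 191 had fewer by 2-fold or more (26.7%, against 37.4%) and 102 more (53.4%, against 30.5%). The OVCAR8 shares were near those of all genes, and RKO was the line where LINC genes with more peaks outnumbered those with fewer. With the lists exchanged, 13 of 115 LINC genes had fewer and 11 more in OVCAR8 (all genes: 14.1% and 11.02%), and 60 of 111 had fewer and 3 more in SKOV3 (all genes: 49.4% and 3.48%).

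As labelled, LINC genes that differed in both ovarian lines mostly did so in opposite directions, as genes of all kinds did. Of 167 LINC genes with a peak in an ovarian list, 45 (26.9%) had fewer peaks in every OVCAR8 knockdown list and more in every SKOV3 knockdown list, and 25 (14.97%) the reverse. Of 13348 genes of all kinds, 21.8% and 11.2% did so, and 2.14% had fewer and 0.202% more in both lines. With the lists exchanged, the opposite patterns held in 0 and 5 LINC genes (all genes: 0.712% and 5.39%). As labelled, LINC01128 alone had fewer in both lines, with 3 and 4 against 1 and 1 in OVCAR8 and 7 and 4 against 3 and 1 in SKOV3. LINC00342 alone had more in both, with 2 and 2 against 9 and 12 in OVCAR8 and 4 and 4 against 7 and 5 in SKOV3. Of its 4 SKOV3 knockdown regions, 0 were gained. Its 8 gained OVCAR8 regions were 8 with lists of equal size and 1 with stronger peaks. In LOVO and RKO, LINC01128 had 11 and 11, and 8 and 5, and LINC00342 10 and 6, and 5 and 6.

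Of 32 LINC genes with a control region in all 4 lines, 3 (9.38%) lost at least 1 region in every line, against 9.83% of 4874 such protein-coding genes. With the ovarian lists exchanged, the shares were 9.38% and 7.30%. At least 1 region was lost in 1 line in 145 LINC genes, in 2 lines in 41, in 3 lines in 13 and in all 4 in 3 genes, LINC01128, LINC01237 and LINC03009. LINC01128, at chr1:827591-859446, lost 1 of 3 control regions for OVCAR8, 1 of 4 for SKOV3, 3 of 11 for LOVO and 4 of 8 for RKO. LINC03009, at chr7:76549341-76627982 on the plus strand, lost 3 of 5, 2 of 5, 3 of 6 and 2 of 6. LINC01237, at chr2:241881363-242078722, lost 1 of 1, 1 of 2, 1 of 1 and 1 of 5, while it had 5 peaks in RKO control and 13 in RKO knockdown. None of the 3 genes remained with lists of equal size or with the stronger peaks of each list.

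A list of 39 LINC genes often studied in cancer held 36 genes that the RefSeq table names as LINC genes, of which 21 had a peak and 3, LINC00667, LINC00963 and LINC01278, had one in every list. Of 13 with a peak in OVCAR8, 6 had fewer and 1 more in knockdown, and of 11 in SKOV3, 4 had fewer and 4 more, beside the shares of all genes given above, 46.7% and 15.1%, and 31.8% and 26.8%. With the lists exchanged, 3 of 13 had fewer and 3 more in OVCAR8, and 3 of 8 fewer and 0 more in SKOV3. Of 14 in LOVO, 7 had fewer by 2-fold or more and 2 more (all genes 28.4% and 15.6%), and of 14 in RKO, 3 had fewer and 7 more (37.4% and 30.5%). LINC00707 lacked peaks in OVCAR8 control, with 6 and 5 in the lists labelled OVCAR8 knockdown, 10 and 9 in the SKOV3 control lists, 4 and 2 in SKOV3 knockdown and 0 in the colorectal lists. LINC01605 had 8 in both SKOV3 control lists, 1 or 2 in the other ovarian lists, 6 and 4 in LOVO and 0 in RKO. LINC01234 had 3 in both OVCAR8 control lists, 0 for OVCAR8 knockdown and SKOV3 control, and 4 and 6 in SKOV3 knockdown. LINC00472, whose window is printed above, had 3 peaks in each OVCAR8 list and each SKOV3 control list, 2 in each SKOV3 knockdown list, 0 in both LOVO lists and RKO control, and 2 in RKO knockdown. It was the steadiest of the 4 over the ovarian lists, with no control region lost in either ovarian line.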

How the data were processed

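The 12 deposited peak lists were analysed, from 32 libraries, 16 of MeRIP and 16 of input. The tools in the submitters' processing notes are, with no role or order, MACS2 2.2.7.1, HISAT2 2.1.0, Trim Galore 0.6.6 and Bowtie2 2.4.2, and the build is hg38. Per the file headers, each OVCAR8 and SKOV3 list comes from 1 MeRIP library, and the authors deposited for its peaks a linear fold enrichment and p and q values as −log10. The authors deposited 1 list a group for LOVO and for RKO, whose score column has no explanation. Peak names there cite replicate 1, and the use of replicate 2 and the read totals (hence the depth) were not given in the sources used here.

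On chromosomes 1 to 22 and X, peaks were assigned to gene bodies of RefSeq (GRCh38.p14) by 1 shared base, with a peak counted in each LINC gene it touched. The table gives no exons or strands. Strand came from the promoter table. Strength was the rank of −log10 p, or of the score in LOVO and RKO. Shares were compared by two-sided exact permutation within lines, and loss and gain carry 95% Wilson intervals. The code for loss was checked on simulated lists, which tests none of the results above. Python 3.11.15, pandas 2.3.3, numpy 2.4.6, scipy 1.17.1 and matplotlib 3.10.9 were used.

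The members and gene lists were chosen with earlier results of these data known. The rule for named genes took per line the 5 LINC genes with most control peaks. It added, among genes differing in that direction in every list, the 4 with most regions lost and the 4 with most gained, and the 6 genes with the highest smallest peak number over the 4 lines. It also took up to 8 genes with a peak in all 12 lists and up to 6 of a list of LINC genes often studied in cancer. Genes outside it (LINC00958, the genes of the printed windows and the names of those in every list) were chosen after their values were seen. Alternatives used lists of equal size, stronger peaks, other overlap rules, exchanged ovarian lists, left-out lists and a replicate block.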

Additional observations from a re-analysis of the deposited data

Results flagged for a closer look

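In OVCAR8 and SKOV3 every knockdown list lay on opposite sides of the control lists, as labelled, in 45 LINC genes with fewer peaks in OVCAR8 knockdown and more in SKOV3 knockdown, and in 25 LINC genes with the reverse, which is 26.9% and 14.97% of 167 LINC genes against 21.8% and 11.2% of 13348 genes of all kinds. With the ovarian knockdown lists exchanged, the numbers were 0 and 5. The difference between the lines was not tested. Among the named genes, the mean OVCAR8 knockdown minus control difference in peaks was -21.5 in LINC02899, -11.5 in LINC02476, -8 in LINC00842 and in LINC01278, -7.5 in LINC03077, -6 in LINC01000, -5 in LINC00630 and -3 in LINC01234. The SKOV3 differences of these genes were 20, 13, 8, 6, 7, 3, 3 and 5 in the same order. The reverse held for LINC01592 at 10, LINC00609 at 8.5, LINC00534 at 7, LINC00707 at 5.5, LINC01776 at 4, LINC02438 at 3, LINC02582 at 2.5 and LINC01515 at 1 in OVCAR8. Their SKOV3 differences were -10, -7.5, -10.5, -6.5, -11.5, -11, -11.5 and -7.5. The part of the ovarian list labels in these differences was not tested.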

How the results depend on the processing

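No alternative moved an adjusted p of the 3 ratios below 0.05, and adjusted p ranged from 0.0556 to 1. The mean log2 difference of the LINC share, and that against protein-coding peaks, changed sign to -0.0748 and -0.0822 with the stronger peaks of each list, to -0.125 and -0.157 without the RKO lists, to -0.0544 and -0.0816 in OVCAR8 and SKOV3 alone, and to -0.0718 and -0.0781 when bases were counted. The ratio against other long non-coding genes kept its sign in all alternatives. With the replicate block, the differences were 0.0602, 0.0697 and 0.062, with exact p of 1, 1 and 0.25, and the smallest possible p was 0.0313. Same-numbered lists shared only a number, since the correlation of their deviations over genes was 0.01 in OVCAR8 and -0.01 in SKOV3.

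The percent of LINC control regions lost in OVCAR8 was 64.1 with lists of equal size, 81.5 with stronger peaks, 10 with the ovarian knockdown lists exchanged, 83.9 when 50% of a region had to be covered, 78.6 with regions of any list and 80.9 when absence from 1 list sufficed. In SKOV3 it was 66.7 with stronger peaks, 59.9 in LINC genes that overlap no other gene, 52.3 exchanged, 67.7 with 50% covered, 65.4 with any list and 67.7 with absence from 1 list. In LOVO it was 52.9 with 50% covered, and in RKO 69.5 with equal lists, 69.2 with stronger peaks and 70.3 with 50% covered. In alternatives chosen after seeing the data, it was 72.1 in OVCAR8 and 57.8 in SKOV3 without the 3 genes with most control regions, 67.2 and 46.4 on the strand of the gene, and 64.8 in SKOV3 over 5 kb from protein-coding genes.

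The percent of LINC knockdown regions gained in OVCAR8 was 62.8 with equal lists, 48.7 with stronger peaks, 59.3 in LINC genes alone, 59.5 by midpoint, 8.52 exchanged, 59.5 with 50% covered, 58.0 with any list and 59.5 with absence from 1 list. In SKOV3 it was 64.3 with equal lists, 63.5 with stronger peaks, 0 exchanged, 62.8 with 50% covered, 60 on either strand, 61.9 with any list and 62.8 with absence from 1 list. With equal lists, gain was 36.1 in LOVO and 78.2 in RKO. The number of LINC genes with a loss in all 4 lines was 0 with equal lists and with stronger peaks, and 5 with 50% covered and with absence from 1 list.

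Leaving out 1 ovarian list at a time gave 75.2 to 79.6 for OVCAR8 loss, 62.4 to 65.8 for SKOV3 loss, 57.3 to 60.7 for OVCAR8 gain, 59.2 to 61.5 for SKOV3 gain and 3 to 4 genes lost in all lines. In all, of the recomputed ratios, percentages and gene totals, 157 stayed within the spread or on the same side, 54 moved and 8 changed sign. Of the recomputed region counts of named genes, 474 stayed within 1.5 times and 70 did not. LOVO and RKO have 1 list per group and depth is unknown, so a peak absent from a list may lie below detection.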
